A study of Mus musculus with 4 samples.

Results

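The 9 genes described here encode the CD3 chains (*Cd3e*, *Cd3d*, *Cd3g* and *Cd247*), the kinases LCK and ZAP70 (*Lck*, *Zap70*), the adaptor LAT (*Lat*) and the surface receptors CD28 and CD2 (*Cd28*, *Cd2*). They were chosen by name among the 23361 genes of the deposited expression table, and each had a row in all 4 libraries. The libraries were made from early T lineage progenitors (ETP), the most immature T cell precursors of the thymus, of female C57BL6 mice. There were 2 libraries from young mice of 4 to 6 weeks and 2 from old mice of 72 weeks, and the labels name no transgene, deletion or treatment in either age. The sort kept thymocytes that were Lin-, CD44+, CD117+ and CD25-, and cells were lysed directly after it. The lineage antibodies included those against CD3ε, TCRβ, TCRγδ, CD8α and NK-1.1, and against CD45R, IgM, Gr-1 and CD11b, which mark B and myeloid cells, so that cells with these proteins on their surface were removed, whereas the values below are of transcripts. How many animals contributed to a library, and whether both libraries of an age came from different animals, is not stated, and p-values therefore measure only how far these libraries spread, which may be technical.

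In T cells the CD3 chains carry the signal of the T cell receptor (TCR), which has no signalling domain of its own. CD3ε pairs with CD3γ and with CD3δ, and the product of *Cd247*, CD3ζ, joins the complex as a homodimer. LCK phosphorylates tyrosine motifs in the CD3 chains, ZAP70 docks on these motifs and phosphorylates LAT, and LAT assembles the enzymes of the next steps. CD28 gives the costimulatory signal of T cells, and CD2 is an adhesion receptor that T cells share with NK cells. ETP have not completed rearrangement of their TCR genes, and the complete receptor appears at the surface only in later thymocytes.

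*Cd3g*, *Cd3d* and *Cd3e* lie side by side on chromosome 9 of GRCm38, within 40056 bases. By GENCODE M21, *Cd3g* runs from 44969572 to 44980431 on the minus strand, *Cd3d* from 44981786 to 44987339 on the plus strand and *Cd3e* from 44998740 to 45009627 on the minus strand. *Cd3g* and *Cd3d* are transcribed away from each other from start sites 1355 bases apart, and the start site of *Cd3d* is 27825 bases from that of *Cd3e*. *Cd247* is on chromosome 1 from 165788681 to 165877277 on the plus strand. The 250 bases before the RefSeq start sites of these 4 genes are printed here because the genes of the chromosome 9 cluster and *Cd247* had levels of opposite direction between the ages. The sequences are from RefSeq (GRCm38.p6), each 5′ to 3′ on the strand of its gene. Capitals mark GGAAG or its complement CTTCC, a longer form of the core letters GGAA bound by ETS factors. The shorter GGAA, which the *Cd3g* window also holds, is neither marked nor counted. The windows are chr9:45009612-45009861 for *Cd3e*, chr9:44981536-44981785 for *Cd3d*, chr9:44980432-44980681 for *Cd3g* and chr1:165788431-165788680 for *Cd247*.
Cd3e: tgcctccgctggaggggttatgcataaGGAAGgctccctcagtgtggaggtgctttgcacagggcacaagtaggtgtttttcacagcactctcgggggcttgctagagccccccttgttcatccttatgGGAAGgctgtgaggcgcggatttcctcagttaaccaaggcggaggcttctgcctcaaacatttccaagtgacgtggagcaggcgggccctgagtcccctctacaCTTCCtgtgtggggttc
Cd3d: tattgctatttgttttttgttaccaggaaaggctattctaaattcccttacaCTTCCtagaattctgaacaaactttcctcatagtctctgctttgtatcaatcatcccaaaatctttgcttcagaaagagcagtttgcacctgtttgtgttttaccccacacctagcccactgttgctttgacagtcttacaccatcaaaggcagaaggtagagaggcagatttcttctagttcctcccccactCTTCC
Cd3g: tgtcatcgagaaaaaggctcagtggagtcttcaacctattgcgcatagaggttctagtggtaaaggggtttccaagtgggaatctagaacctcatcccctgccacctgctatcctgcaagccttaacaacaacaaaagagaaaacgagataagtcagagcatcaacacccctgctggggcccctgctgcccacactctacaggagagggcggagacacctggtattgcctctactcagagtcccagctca
Cd247: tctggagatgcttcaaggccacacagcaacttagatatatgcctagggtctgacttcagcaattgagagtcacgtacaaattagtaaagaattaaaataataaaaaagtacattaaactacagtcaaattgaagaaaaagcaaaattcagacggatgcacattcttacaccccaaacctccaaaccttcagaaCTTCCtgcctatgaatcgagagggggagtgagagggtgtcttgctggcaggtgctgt
The letters GGAAG or CTTCC occurred at 3 places in the *Cd3e* window, 2 in that of *Cd3d*, 1 in that of *Cd247* and 0 in that of *Cd3g*. Of the 32851 promoter windows of this length in the RefSeq table, 64.1% hold them at least once. The E box letters CANNTG, which read alike on both strands and were searched without regard to overlap with other motifs, occurred at 1, 1, 3 and 2 places in *Cd3e*, *Cd3d*, *Cd3g* and *Cd247*, and 66.2% of all windows hold them. The TATA letters TATAAA, searched on both strands and held by 12.4% of all windows, were in 0 of the 4, as were the RUNX letters TGTGGT or ACCACA, held by 14.0%. The TCF/LEF letters CTTTGA or TCAAAG occurred at 2 places in the *Cd3d* window and 0 in the other windows, and 13.8% of all windows hold them. These letter matches are a description of the windows.

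The table gives the estimated number of fragments of each gene and the authors' FPKM, which are scaled by transcript length. Here fragments were scaled for library size and composition with TMM normalization (normalized CPM) for comparisons between libraries, and FPKM were used for comparisons between genes. Libraries held 16658865 and 6414917 fragments in young replicates 1 and 2 and 11816480 and 4839341 in old replicates 1 and 2, where the table's own numbers 0 and 1 are called replicates 1 and 2. Values of an age are given below with replicate 1 before replicate 2. The gate genes *Kit*, which encodes CD117, and *Cd44* were at high levels in all libraries (763.8 to 1096 and 496 to 636 normalized CPM), and *Il2ra*, which encodes the excluded CD25, was at 22.9 to 39.9. The ages were compared with edgeR's quasi-likelihood test over the 10080 genes that reached an FPKM of 1 in 2 or more libraries, with Benjamini-Hochberg adjustment over all of them and a threshold of 0.05. Of the 9 genes 7 were tested, and *Cd3d* and *Zap70* were under the filter. *Cd3g* and *Cd2* passed the filter through the old libraries alone, so that a higher level in old ETP is partly built into their being tested. As in all bulk samples, more cells that express a gene and more RNA per cell cannot be told apart.

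In edgeR 0 of the 7 tested genes passed the threshold, as did 0% of all tested genes in either direction. The smallest adjusted p of any gene was 0.325. Where an unadjusted p under 0.05 was taken instead, *Cd3e*, *Cd3g*, *Cd28* and *Cd2* were higher and *Cd247* lower in old ETP, where 4.65% of all tested genes were higher and 0.913% lower. DESeq2 on the same counts called *Cd3e* higher in old ETP and none of the other 6, and it called 2.08% of all tested genes higher and 0.149% lower. With no filter on low values, edgeR called *Cd3e* and *Cd28*, where 2.77% of the 17112 genes then tested were called higher. Without old replicate 1 it called *Cd3e*, where 2.16% of all tested genes were called higher. Limma on log2(FPKM + 1) called 0 of the 7, and 0% of all tested genes. In normalized CPM, both old libraries lay above both young libraries for 6 of the 9 genes and below them for *Cd247*, and the ages overlapped for *Lck* and *Lat*. Of the genes above, *Cd3d* and *Zap70* were not tested, and *Cd3g* and *Cd2* passed the filter through the old libraries alone. Over all tested genes, 16.1% lay above and 15.5% below in this way. These shares belong beside *Cd3e*, *Cd3g*, *Cd28* and *Cd2* above and *Cd247* below, out of the 7 tested. In FPKM, whose sum per library ran with depth from 122998 to 281542, 4 of the 9 lay above, *Cd247* lay below, and *Cd3d* and *Zap70* overlapped as well. For a gene on its own, 0.333 is the smallest two-sided p that an exact permutation over 2 and 2 libraries allows.

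**Figure D1:**
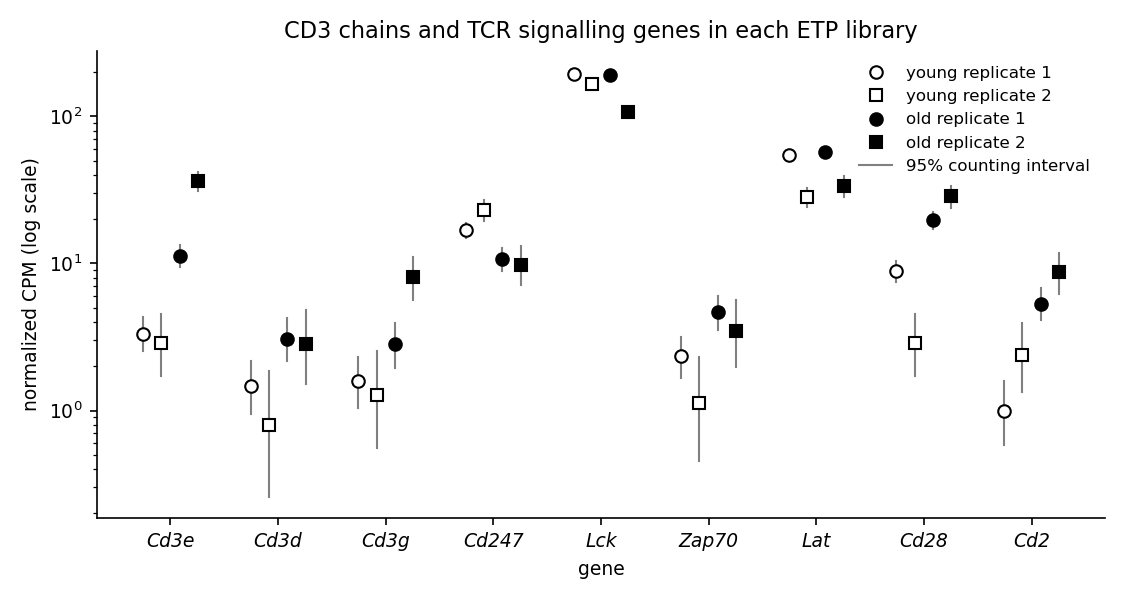
Levels of the 9 genes in each library in normalized CPM (log axis), open symbols for young and filled for old ETP, circles for replicate 1 and squares for replicate 2, with exact 95% Poisson intervals of the fragment count as vertical lines. *Cd3e* is at 3.34 and 2.88 in the young libraries and at 11.2 and 36.2 in the old, *Cd247* is lower in both old libraries, and the ages overlap for *Lck* and *Lat*.

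*Cd3e*, which encodes the chain shared by the CD3 pairs, had the largest fold difference of the 9 genes. Young replicates 1 and 2 held 57 and 18 *Cd3e* fragments, or 3.34 and 2.88 normalized CPM, and old replicates 1 and 2 held 135 and 166 fragments, or 11.2 and 36.2 normalized CPM. Both old libraries lay above both young libraries, and old replicate 2 lay far above old replicate 1. The means were 3.11 ± 0.320 in young and 23.7 ± 17.6 in old ETP (SD, n = 2 libraries each), and the old mean was 7.62 times the young mean. The log2 fold change was 2.90 (standard error 0.66, adjusted p = 0.379 from edgeR). DESeq2 gave an adjusted p of 0.00142, and all alternatives lay between 4.93e-06 and 0.99. It was 1.81 when old replicate 2 was left out, and without old replicate 1 it was 3.56 with an adjusted p of 0.00939 in edgeR. The young libraries differed by 1.16 times. The 95% counting intervals of the old libraries (9.41 to 13.3 and 30.9 to 42.1) did not overlap, so they differed by more than the counting error of independent fragments. Intervals cover counting error only. Reads copied from a molecule by PCR are not independent, so that these intervals may be too narrow. A gene annotated on the other strand, *Gm48719*, shares exonic positions with *Cd3e*, and without strand in counting their reads cannot be told apart.

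*Cd3g* and *Cd3d*, the neighbours of *Cd3e* on chromosome 9, had low counts at both ages. *Cd3g* was at 1.58 and 1.28 normalized CPM in the young libraries, from 27 and 8 fragments, and at 2.83 and 8.06 in the old libraries, from 34 and 37 fragments. Its order over the libraries was that of *Cd3e*, with old replicate 2 highest and young replicate 2 lowest. The log2 fold change was 1.86 (standard error 0.69, adjusted p = 0.83 from edgeR), and leaving out old replicate 2 gave 0.93 and leaving out old replicate 1 gave 2.50. *Cd3d* was at 1.46 and 0.801 normalized CPM in young replicates 1 and 2, from 25 and 5 fragments, and at 3.08 and 2.83 in the old libraries, from 37 and 13 fragments. Unlike *Cd3e*, *Cd3d* was not higher in old replicate 2 than in old replicate 1. In the fit with no filter on low values its log2 fold change was 1.32 (standard error 0.86, adjusted p = 0.999 from edgeR). Its FPKM of 1.06 in old replicate 1 was the only value over the minimum of 1, and its others ran from 0.204 to 0.635.

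*Cd247*, which encodes CD3ζ, had the opposite direction. It was at 16.8 and 23.1 normalized CPM in the young libraries and at 10.6 and 9.80 in the old libraries. The old libraries were close to each other and both lay below the young libraries, with means of 19.9 ± 4.43 in young and 10.2 ± 0.592 in old ETP (SD, n = 2 each). The log2 fold change was -0.96 (standard error 0.36, adjusted p = 0.851 from edgeR), and it ran from -1.17 without young replicate 1 to -0.71 without young replicate 2. *Cd247* kept this direction in all 11 alternatives tried, and passed an adjusted p under 0.05 in 0 of them. Its fragments were not whole numbers (287 and 144 in young, 128 and 45.3 in old replicates 1 and 2), and *Pou2f1* on the other strand and *Gm16565* share exonic positions with it.

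Per transcript length, the makeup of the CD3 chain transcripts differed between the libraries of the ages. Within a library the ratio of 2 FPKM does not depend on how libraries are scaled. The ratio of *Cd3e* to *Cd247* FPKM was 0.265 and 0.193 in young replicates 1 and 2 and 1.37 and 5.57 in old replicates 1 and 2. *Cd247* thus exceeded *Cd3e* in both young libraries and was exceeded by it in both old libraries. Of the summed FPKM of the 4 CD3 chains, *Cd247* took 63.1% and 72.5% in young ETP against 30.3% and 11.2% in old ETP, whereas the share of *Cd3e* was 16.7% and 14.0% in young ETP against 41.4% and 62.5% in old ETP. The sums themselves were 7.89 and 4.82 FPKM in young and 8.52 and 11.3 in old ETP. The ratio of *Cd3e* to *Cd3g* was 1.38 and 1.50 in young ETP against 2.61 and 2.99 in old ETP, and that of *Cd3e* to *Cd3d* was 2.08 and 3.29 in young and 3.33 and 11.7 in old. These ratios were formed after the values had been seen and were not tested.

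**Figure D2:**
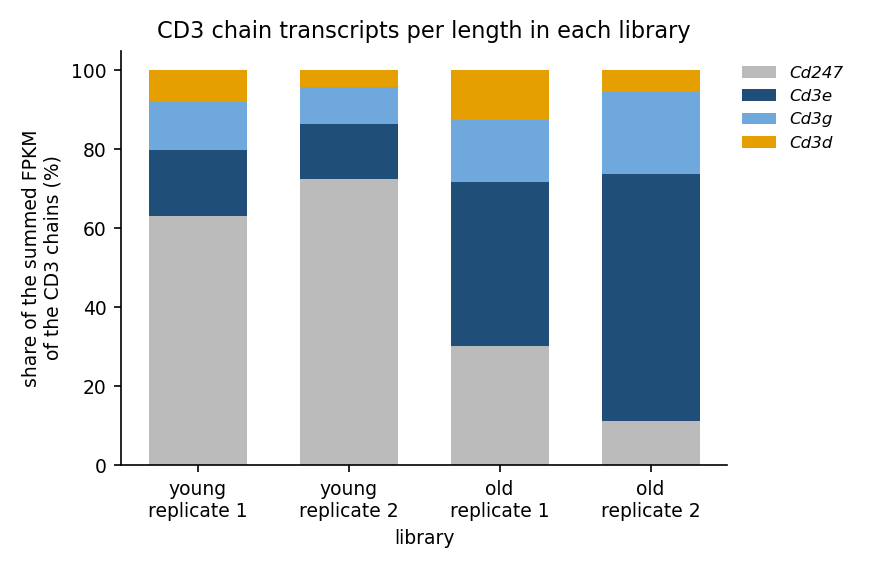
Share of each CD3 chain gene in the summed FPKM of the 4 chains (%), as a stacked bar for each library. *Cd247* takes 63.1% and 72.5% in the young and 30.3% and 11.2% in the old libraries, and *Cd3e* takes 62.5% in old replicate 2.

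*Lck*, the kinase that starts TCR signalling, was the most abundant of the 9 genes per length, and *Zap70*, the kinase that follows it, was the least abundant on average. *Lck* is on chromosome 4 from 129548344 to 129573641 on the minus strand, and *Zap70* on chromosome 1 from 36761798 to 36782818 on the plus strand. *Lck* was at 194 and 166 normalized CPM in the young libraries and at 191 and 106 in the old libraries. Old replicate 1 lay between the young libraries and old replicate 2 below all others, so the difference between the old libraries was larger than that between the ages. The log2 fold change of *Lck* was -0.27 (standard error 0.36, adjusted p = 0.999 from edgeR), and leaving out old replicate 2 gave 0.059 and leaving out old replicate 1 gave -0.72. *Zap70* was at 2.34 and 1.12 normalized CPM in the young libraries, from 40 and 7 fragments, and at 4.66 and 3.49 in the old libraries, from 56 and 16 fragments. The old libraries lay above the young in CPM, but the 95% counting interval of old replicate 2 (1.99 to 5.66) included the value of young replicate 1. In the fit with no filter the log2 fold change of *Zap70* was 1.18 (standard error 0.74, adjusted p = 0.984 from edgeR). The ratio of *Lck* to *Zap70* FPKM was 84.5 and 150.2 in young ETP against 41.6 and 31.2 in old ETP.

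*Lat*, the adaptor that ZAP70 phosphorylates, did not separate the ages. The gene is on chromosome 7 from 126363824 to 126369570 on the minus strand. It was at 54.7 and 28.2 normalized CPM in the young libraries and at 56.9 and 33.6 in the old libraries. In each age replicate 1, the deeper library, was the higher, by 1.94 times in young and 1.70 times in old ETP. The old mean was 1.09 times the young mean, with a log2 fold change of 0.13 (standard error 0.45, adjusted p = 0.999 from edgeR) that ran from -0.28 without old replicate 1 to 0.69 without young replicate 1. It was -0.27 without young replicate 2. On the log2(FPKM + 1) scale it took the other sign, at -0.14, where the median of all tested genes was -0.27. At this spread a difference between the ages was not detectable for *Lck* or *Lat*.

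*Cd28* and *Cd2*, the surface receptors, were both higher in both old libraries. *Cd28* is on chromosome 1 from 60716800 to 60773359 on the plus strand, and *Cd2* on chromosome 3 from 101275899 to 101287939 on the minus strand. *Cd28* was at 8.89 and 2.88 normalized CPM in the young libraries and at 19.7 and 28.5 in the old libraries. The young libraries differed by 3.08 times, the widest gap within the young libraries among the 9 genes, and young replicate 2 rests on 18 fragments. The means of *Cd28* were 5.89 ± 4.25 in young and 24.1 ± 6.25 in old ETP (SD, n = 2 each), a ratio of 4.10, and the log2 fold change was 1.99 (standard error 0.60, adjusted p = 0.63 from edgeR, with 0.00323 to 1.00 over all alternatives). It was 3.05 without young replicate 1 and 1.43 without young replicate 2. *Cd2* was at 0.995 and 2.40 normalized CPM in the young libraries, from 17 and 15 fragments, and at 5.32 and 8.71 in the old libraries, from 64 and 40 fragments. In *Cd2* replicate 2 was the higher library of each age, the reverse of *Lat*. The means of *Cd2* were 1.70 ± 0.996 and 7.02 ± 2.40 (SD, n = 2 each), a ratio of 4.13, with a log2 fold change of 2.096 (standard error 0.65, adjusted p = 0.653 from edgeR, with 0.0101 to 0.999 over all alternatives) that ran from 1.52 without young replicate 1 to 2.79 without young replicate 2. 

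**Figure D3:**
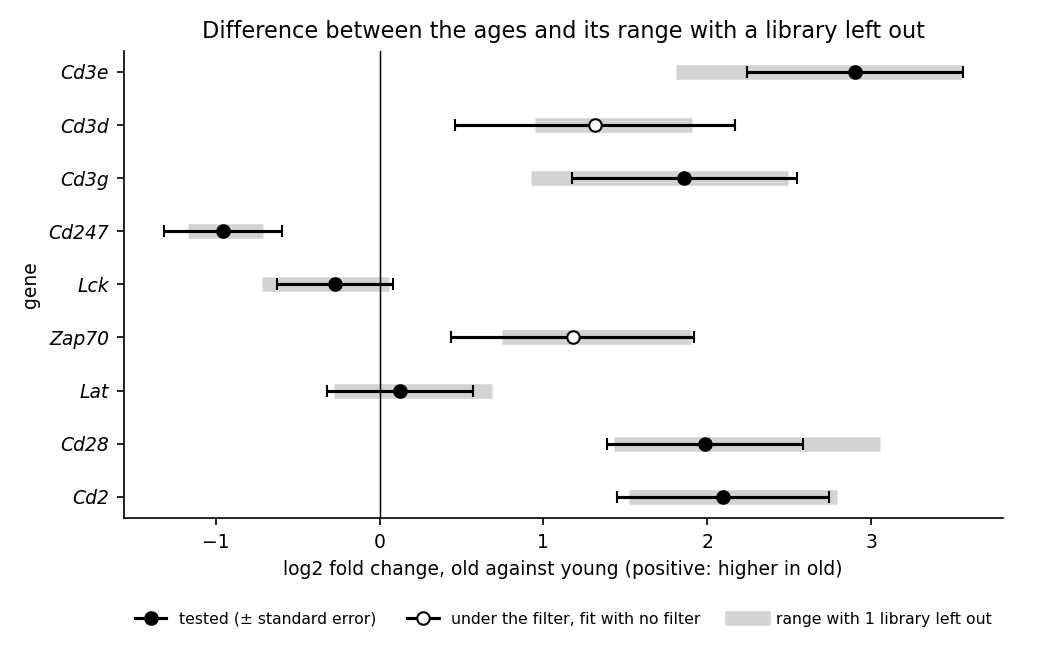
Log2 fold change of each of the 9 genes, positive where old is higher, with the standard error as a bar and the range over the fits with 1 of the 4 libraries left out in grey. Filled points are tested genes and open points are *Cd3d* and *Zap70*, from the fit with no filter. The range crosses 0 for *Lck* and *Lat*, lies below 0 for *Cd247* and lies above 0 for the other 6 genes.

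In FPKM, the order of the 9 genes was led by *Lck* and *Lat* in all 4 libraries. *Lck* was at 48.2 and 24.5 FPKM in young ETP against 37.7 and 13.2 in old ETP, and *Lat* at 26.0 and 7.86 in young and 21.5 and 7.82 in old. *Cd247* ranked 3 in both young libraries, at 4.98 and 3.49 FPKM, and *Cd3e* ranked 3 in both old libraries, at 3.53 and 7.05 FPKM. In old replicate 2 *Cd247* ranked 7, at 1.27 FPKM. The means of *Cd3e* and *Cd247* over the 4 libraries, 3.14 and 3.08 FPKM, were closer than the spread of either gene. *Cd2*, *Cd3g* and *Cd28* had means over the 4 libraries of 1.42, 1.28 and 1.18 FPKM and changed places between libraries, so their order was not settled. *Cd3d* and *Zap70* had the lowest means, at 0.626 and 0.516 FPKM.

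The genes whose pattern was most like the mean of *Cd3e*, *Cd3d* and *Cd3g*, by the root mean square difference of centred log2 CPM over the 4 libraries, were *Trim36* (0.039), *Pdia5* (0.044), *Lrrc25* (0.047), *Ehbp1l1* (0.11) and *Tmsb4x* (0.13). *Trim36* was at 5.44 and 4.48 normalized CPM in young ETP against 12.6 and 23.7 in old ETP. The genes nearest to the mean of *Cd247*, *Lck*, *Lat* and *Zap70* were *Rpl29*, *Sf3a1*, *Atp6v1h*, *Tmem183a* and *Nefh* (0.0040 to 0.015). These 5 had replicate 1 above replicate 2 in each age and log2 fold changes between the ages of 0.0014 to 0.030. That mean joins genes of opposite direction, and its likeness to each of the 4 genes was not computed. Likeness over 4 libraries is a description only.

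The other genes of TCR signalling were described from lists chosen from textbook knowledge. Of 60 such genes described, 46 were tested and 14 were under the filter. In edgeR 0 of the 46 passed the threshold, as did 0% of all tested genes. DESeq2 called 0 of the 46, where it called 2.08% of all tested genes higher and 0.149% lower. At an unadjusted p under 0.05 in edgeR, 1 was higher (*Nfatc2*) and 1 lower (*Cd27*) in old ETP. Of all tested genes, 4.65% were higher and 0.913% lower at that level. Estimates were higher in old ETP for 26 and lower for 20, where 46.6% and 53.4% of all tested genes were. Both old libraries lay above both young for 7 of the 46 and below them for 8, against 16.1% and 15.5% of all tested genes. *Cd4*, among these 8, passed the filter through the young libraries alone, so that its lower level is partly built in.

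Among 12 tested kinases, phosphatases and DOK adaptors the median log2 fold change was 0.0024, with 6 higher and 6 lower estimates, beside a median of -0.033 over all tested genes. *Ptprc*, which encodes the phosphatase CD45, was at 661 and 784 normalized CPM in young ETP against 515 and 953 in old ETP. *Csk*, which encodes the kinase that holds LCK inactive, was at 220.02 and 150.1 in young and 235 and 161 in old. These genes, the most abundant of the list per length, overlapped between the ages. The largest fold changes were those of the phosphatase gene *Ptpn22* (0.79, standard error 0.38, adjusted p = 0.999 from edgeR) and the inhibitory adaptor gene *Dok2* (-0.46, standard error 0.43, adjusted p = 0.999 from edgeR).

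Among 26 tested adaptors and effectors the median was 0.12, with 16 higher and 10 lower estimates. *Nfatc2*, which encodes a transcription factor activated by calcium, was at 76.4 and 65.4 in young and 114 and 168 in old, with a log2 fold change of 0.99 (standard error 0.30, adjusted p = 0.642 from edgeR). Both old libraries lay above both young for *Nfatc2*. *Pag1*, which encodes an adaptor that recruits CSK to the membrane, was at 229.6 and 411 normalized CPM in young ETP against 172 and 244 in old ETP, so that the ages overlapped, and its log2 fold change was -0.62 (standard error 0.38, adjusted p = 0.999 from edgeR). The most abundant genes of the list per length, *Nfatc3* and the ubiquitin ligase gene *Cbl*, had log2 fold changes of -0.16 and 0.36.

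Among 8 tested coreceptors and costimulatory or adhesion receptors the median was -0.072, with 4 higher and 4 lower estimates. *Cd27*, a costimulatory receptor gene, was at 381 and 351 normalized CPM in young ETP against 247 and 212 in old ETP. Its log2 fold change was -0.67 (standard error 0.26, adjusted p = 0.869 from edgeR). *Cd48*, which encodes the ligand of CD2, was at 366 and 420.3 in young and 227 and 296 in old (log2 fold change -0.59). Both old libraries lay below both young for *Cd27* and *Cd48*, whereas *Cd2* had the opposite direction. *Cd4* was at 11.3 and 10.4 in young and 4.66 and 8.28 in old (log2 fold change -0.77). *Cd4* passed the filter through the young libraries alone, so that a lower level in old ETP is partly built into its being tested. *Ptcra*, which encodes the pre-TCR α chain of later thymocytes, was listed at 0 in all 4 libraries, and 14 symbols of TCR constant regions matched no row and are not analysed here.

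**Figure D4:**
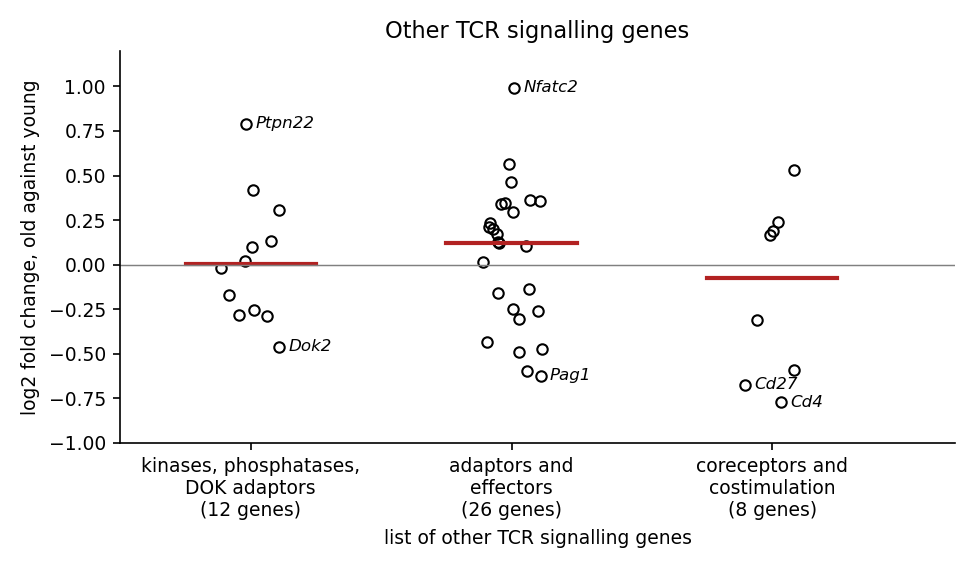
Log2 fold change of each of the 46 tested genes of the 3 lists of other TCR signalling genes, positive where old is higher, with each gene as a point and the median of its list as a bar. *Nfatc2* is highest at 0.99, and the medians are 0.0024, 0.12 and -0.072.

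Markers of other cells were higher in the same libraries as some of these genes. The summed level of 14 conventional dendritic cell markers was 1273 and 1533 normalized CPM in young ETP against 2305 and 5896 in old ETP, highest in old replicate 2 as for *Cd3e*, *Cd3g*, *Cd28* and *Cd2*. Most of this sum came from *Wdfy4*, *Cd24a* and *Flt3* in all 4 libraries. In young ETP these were at 518 and 593, 292 and 445, and 279 and 243 normalized CPM. Of 12 tested dendritic cell markers 11 had a log2 fold change above 0, as did 46.6% of all tested genes. EdgeR called 0 of the 12, and 8 were higher at an unadjusted p under 0.05, where 4.65% of all tested genes were. DESeq2 called 7 higher, where it called 2.08% of all tested genes higher. *Zbtb46*, *Batf3* and *Itgae* passed the filter through the old libraries alone, so that these counts are partly built into the choice of tested genes. The list's most abundant genes per length, *Cd24a* and *Irf8*, were at 292 to 822 and 59.9 to 864 normalized CPM, with *Irf8* at 277 and 864 in old and at 59.9 and 82.8 in young ETP. *Xcr1*, a defining gene of cross-presenting dendritic cells, was at 10.2 and 26.7 in young ETP against 96.4 and 618 in old ETP. All 14 dendritic cell and all 26 NK cell and innate lymphoid markers had fragments in at least 1 library. The sum of 26 NK cell and innate lymphoid markers was 509.9 and 647 in young and 714 and 894 in old, and the most abundant genes of the list, *Nkg7* and *Tyrobp*, had log2 fold changes of -0.16 and 0.59. Of the 15 tested markers of this list 11 had a log2 fold change above 0 and 7 had both old libraries above both young. Of all tested genes, 46.6% and 16.1% did. EdgeR called 0 of the 15, 6 were higher at an unadjusted p under 0.05, and DESeq2 called 5 higher, beside the same shares of 4.65% and 2.08%. *Ncr1*, *Klrb1b* and *Klrk1* passed the filter through the old libraries alone, so that these counts too are partly built in. *Ncr1*, a defining NK cell gene, was at 0.0585 and 0.320 normalized CPM in young, from 1 and 2 fragments, and at 8.40 and 7.19 in old replicates 1 and 2. The part of dendritic and NK cells in the values of the 9 genes was not tested.

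The sums of the other marker lists were not higher in both old libraries than in both young. That of 9 markers of later thymocytes, with *Cd4* and *Cd8a* of double positive cells among them, was 119 and 189 in young ETP against 93.4 and 130.5 in old ETP, with *Ptcra* at 0 and the most abundant genes *Rag2* and *Cd5* at log2 fold changes of -1.16 and 0.24. *Cd8a* differed from this sum in direction, at 1.64 and 1.92 in young ETP against 7.15 and 22.7 in old ETP. That of 6 γδ T cell markers was 82.3 and 58.6 in young and 51.9 and 25.9 in old, with *Il17a* at 0 and *Sox13* and *Blk* at -1.37 and 0.10. It was lower in both old libraries, as for *Cd247*. The sum of 10 B cell markers was 37.0 and 29.2 in young and 33.7 and 60.1 in old, of which *Cd79b*, at 22.9 to 30.8, made up most in 3 libraries, and *Cd22* reached 18.7 in old replicate 2, where this sum was highest. The sum of 10 granulocyte and monocyte markers, led by *Mpo* and *Lyz2* (log2 fold changes of -0.84 and 0.40), was 2106 and 1363 in young and 1549.8 and 742 in old. Like *Lck* and *Lat*, it was higher in replicate 1 of each age. The part of these cells in the values of the 9 genes was not tested.

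**Figure D5:**
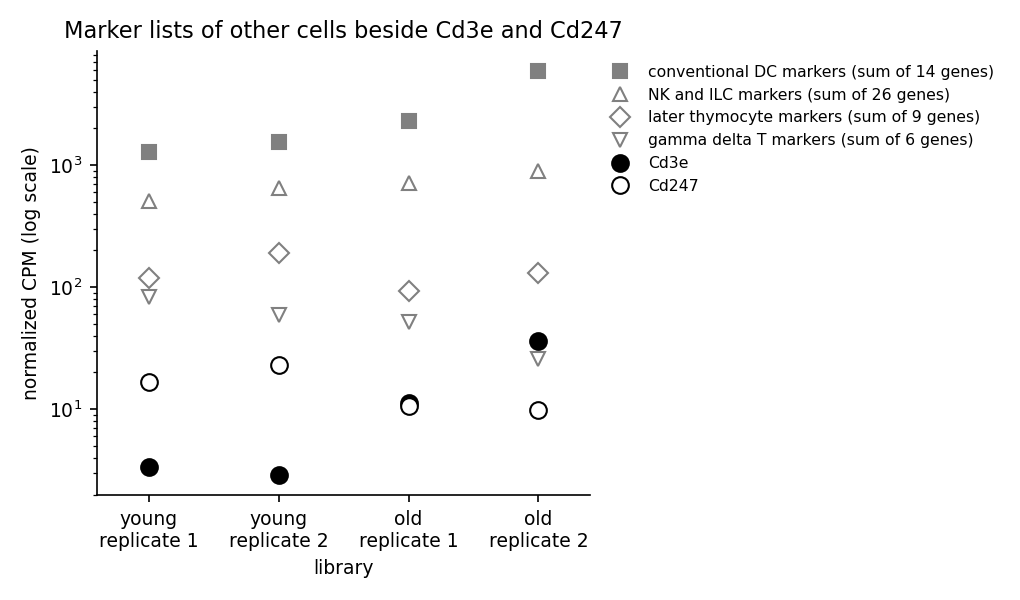
Normalized CPM on a log scale in each library for *Cd3e* (filled circles), *Cd247* (open circles) and the summed levels of 4 marker lists of other cells. The dendritic cell sum goes from 1273 in young replicate 1 to 5896 in old replicate 2, where *Cd3e* is highest, while the γδ T cell sum is lowest there at 25.9. Most of the dendritic cell sum is from *Wdfy4*, *Cd24a* and *Flt3*.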

How the data were processed

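Whole transcriptome sequencing of sorted ETP gave 4 libraries, 2 per age, grouped by the titles of the samples. The authors built them with the Nugen Ovation RNA-Seq System, sequenced both ends of their fragments and used STAR 2.3.0 to align reads to GRCm38 (mm10). Cufflinks 2.1.1, Cuffdiff, DESeq 1.12.1 and HTSeq 0.5.4p3 are named in the processing notes of the submitters. The table deposited by the authors, laid out as Cuffdiff writes it, gives, per gene symbol and library, an estimated count of fragments and an FPKM. It names the conditions Yo and 20m. The second name differs from the age of 72 weeks in the labels, which is used here. Within an age the labels do not settle which sample has which number. The use of strand and the counting of reads with several alignments are not given in the sources used here. Estimated counts were rounded, normalized by TMM over the tested genes and compared by the quasi-likelihood test of edgeR 4.0.16 with age as term (R 4.3.3), with DESeq2 1.42.0 and limma 3.58.1 on log2(FPKM + 1) or log2(FPKM + 0.1) as alternatives. Other alternatives were median-of-ratios scaling, no filter or an FPKM minimum of 0.1, a replicate number term, and each library left out in turn. The steps were tested on simulated data. A count of 0 allows up to 3 fragments, or 0.176 to 0.654 normalized CPM. The 9 genes and all lists were chosen with earlier results of these data known. Some genes are not reported here and were left out of the lists. Named from each pathway list are the 2 tested genes with the highest mean FPKM and the 2 with the largest change (where none passed the threshold), and from each marker list the 2 genes with the highest mean FPKM. *Ncr1*, *Xcr1*, *Wdfy4*, *Flt3*, *Cd8a*, *Ptcra*, *Il17a*, *Cd226* and the genes of the closing section were named after their values were seen. So were the B cell markers other than *Cd22* and *Cd79b*, and the markers that passed the filter through the old libraries alone. For the genes of like pattern 0.5 was added to CPM before the logarithm.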

Additional observations from a re-analysis of the deposited data

How the results depend on the processing

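Of 87 refitted values of the 9 genes, 75 kept the direction and the side of the threshold, 7 kept the direction and passed it, and 5 changed sign. The sign changed for *Lck* without old replicate 2 (0.059, where a library left out gave -0.72 to 0.059) and for *Lat* without young replicate 2 (-0.27), without old replicate 1 (-0.28, where a library left out gave up to 0.69) and with limma on log2(FPKM + 1) or log2(FPKM + 0.1) (each -0.14). The cause was not tested.

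Where edgeR called 0 of 10080 genes in either direction, DESeq2 called 210 higher and 15 lower in old ETP. EdgeR with no filter called 474 higher and 34 lower of 17112, and limma on log2(FPKM + 0.1) called 1 of 10080 lower. With a library left out, counts ran from 0 to 218 higher and from 0 to 3 lower, and the calls were those without old replicate 1. There the lone old library is assumed to vary like the young. Of the 9 genes, DESeq2 called 1 (*Cd3e*), edgeR with no filter 2 (*Cd3e* and *Cd28*), and edgeR with a library left out 0 to 1 (*Cd3e*, without old replicate 1). Of the 59 other TCR signalling genes then tested, edgeR with no filter called 2 higher (*Cd226* and *Cd8a*), beside 2.77% of all genes then tested. DESeq2 called 0 of 46.

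With the replicate number as a block, edgeR called 578 of 10080 genes higher and 199 lower. Of the 9 genes 7 were tested, and 3 were called higher (*Cd3e*, *Cd28* and *Cd2*). Of the 46 other TCR signalling genes tested, 2 were called higher (*Nfatc2* and *Ptpn22*) and 3 lower (*Cd27*, *Cd48* and *Pag1*). Same-numbered libraries deviated together (r = 0.73 across 10080 genes, which are not independent replicates), but nothing in the labels or methods says that a number marks a shared animal, batch or day. Replicate 1 was the deeper library in each age, so that replicate number and depth cannot be told apart. Low depth limits *Cd3d*, *Zap70*, *Cd3g* and *Cd2*, with 5 to 64 fragments in a library.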

Other observations

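*Txk*, a TEC family kinase gene under the filter, was at 0.234 and 1.12 normalized CPM in young ETP against 3.57 and 3.49 in old ETP. Unlike *Cd3e*, it was at like levels in both old libraries. *Cd8a*, which encodes the CD8α chain that dendritic cells can also carry, was at 1.64 and 1.92 normalized CPM in young ETP against 7.15 and 22.7 in old ETP. *Cd8b1*, the CD8β gene of T cells, was at 0.527 and 0.320 in young ETP against 0.499 and 0 in old ETP, where 0 fragments allow up to 0.654. The order of *Cd8a* over the old libraries was that of *Cd3e*. *Fcer1g*, whose product can take the place of CD3ζ as a signalling chain, was at 17.8 and 22.4 in young ETP against 33.7 and 62.7 in old ETP, a direction opposite to that of *Cd247*. It is also among the NK cell and innate lymphoid markers above, and which cells its transcripts came from was not tested. *Syk*, the relative of *Zap70*, was at 259.5 and 282 in young and 265 and 189 in old, and its mean FPKM over the 4 libraries was 17.9 beside 0.516 for *Zap70*.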
